A study of Oryza sativa with 12 samples.

Results

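The 200 least variable genes of developing rice seed were described across 4 tissues: the aleurone (the living layer around the starchy tissue), the embryo, the pericarp (the maternal fruit wall) and the endosperm. Each tissue had 3 sequencing libraries, which the design text calls biological replicates, and the levels below are CPM, a gene's reads in every 1000000 counted reads of its library. The plants (Oryza sativa) were field-grown and untreated, and each library was made from 10 ng of total RNA. The labels used here state neither cultivar nor seed age, nor if seeds were shared between tissues.

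The 200 genes were chosen by their measured steadiness. Of 37878 genes in the deposited table, 37466 carry an identifier beginning with BGIOSGA in place of a symbol, and only these could be chosen. Of them, 806 had 50 or more counts in all 12 libraries, and 351 of the 806 also had a highest tissue mean at most 4 times the lowest. The 200 with the smallest coefficient of variation (CV, the SD over the mean) of CPM over the 12 libraries were taken. All 200 entered the edgeR fit of 16347 genes, and the other 606 of the 806 are the genes they are set beside. Because the choice used every library, the levels, spreads and tissue differences of the 200 are given as descriptions, with no test behind them.

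Genes that every cell needs, such as those of translation, protein turnover, membrane traffic and central metabolism, are often called housekeeping genes, and a few of them serve as internal references when transcript levels are compared between tissues. Rice seed is a demanding setting for such references. The starchy endosperm devotes much of its RNA to starch and storage protein transcripts, the aleurone and embryo store oil, the embryo divides, and the pericarp is a maternal tissue that senesces as the grain fills. A few very abundant transcripts can therefore change the share left for all others, so whether a gene looks steady depends on how libraries are scaled. In whole-tissue samples, fewer cells of a type and less RNA per cell cannot be told apart.

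The word steady holds for these genes only relative to the rest. The rule chose them by low CV on totals, so the gap in CV given here follows from the choice. Their CVs ran from 25.8% to 58.8% with a median of 49.7%, against 46.5% to 164% with a median of 79.1% in the other 606 genes. Counting error alone would give the 200 a CV of 0.676% to 5.97%, and no gene had an observed CV below its counting CV. Every one of the 200 differed by more than 2-fold between its highest and lowest library, 190 by more than 3-fold and 22 by more than 10-fold, with a median of 5.61-fold. Between tissue means the span was smaller, with a median of 2.33-fold, and 55 genes stayed under 2-fold and 12 under 1.5-fold. The genes are therefore called the 200 least variable genes.

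None of the 200 has a symbol or a description in the deposited table, and 0 of their identifiers occur in the reference table of rice genes, so no function is given for any of them. They are named by identifier. Coordinates are those of the authors' table, and the labels used here name no genome build for them.

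The libraries differed in depth and composition. Library totals ran from 5689112 to 16005961 in aleurone, 14205388 to 18169845 in embryo, 2879282 to 6301388 in pericarp and 6367350 to 24412371 in endosperm. A minimum of 50 counts stood for 17.4 CPM in pericarp 4, the shallowest library, and 2.05 CPM in endosperm 4, the deepest (libraries carry the number in their column header). The 10 genes with the most reads took 4.96% to 7.16% of the counts in embryo libraries and 43.0% to 53.9% in endosperm libraries. In aleurone libraries they took 23.2% to 42.1%, and in pericarp libraries 13.0% to 30.8%. WAXY, the granule-bound starch synthase that marks starchy endosperm, had 922 to 2677 CPM in aleurone, 0.951 to 25.3 CPM in embryo and 715 to 3059 CPM in pericarp libraries, against 18748 to 37209 CPM in endosperm libraries. MCM3, a replicative helicase gene of dividing cells, had 240 to 310 CPM in embryo, 245 CPM in pericarp 4 and 0 in pericarp 1 and 3. Other genes listed as embryo markers differed from it in pericarp. OSH15 had 96.2 CPM in pericarp 3 and 0 in pericarp 1 and 4, and CYCB2-1 and OSH71 had 0 in all pericarp libraries. OLE18, an oil body gene, had 1591 to 2742 CPM in aleurone, 1879 to 3023 in embryo, 1659 to 3540 in pericarp and 33.1 to 160 in endosperm. Their part in the levels of the 200 genes was not tested.

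BGIOSGA009113, on the plus strand of chromosome 2 (34450552 to 34460771), had the lowest CV of all, 25.8%. It had 139, 189 and 86.1 CPM in aleurone libraries 1, 2 and 3, 107, 180 and 154 CPM in embryo 2, 3 and 4, 162, 104 and 180 CPM in pericarp 1, 3 and 4, and 170, 124 and 212 CPM in endosperm 2, 3 and 4. The 4 tissues overlapped throughout, and aleurone 3 was the lowest library and endosperm 4 the highest. Tissue means were 138 ± 51.3 CPM in aleurone, 147 ± 37.2 in embryo, 148 ± 39.7 in pericarp and 169 ± 44.4 in endosperm (SD, n = 3 each), a ratio of 1.22 between the highest and the lowest.

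BGIOSGA012803, on chromosome 3 (17709075 to 17718384, plus strand), followed at a CV of 26.7%. Its values were 144, 159 and 183 CPM in aleurone, 185, 170 and 219 CPM in embryo, 106, 136 and 92.4 CPM in pericarp, and 95.7, 118 and 153 CPM in endosperm. The 3 embryo libraries lay above all pericarp and endosperm libraries, so even here the tissues did not fully overlap. Its highest library stood 2.37-fold above its lowest, the narrowest span among the 200.

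BGIOSGA030367 on chromosome 9 (3704076 to 3720492, plus strand) had a CV of 27.6%. It had 305, 405 and 359 CPM in aleurone, 296, 296 and 269 CPM in embryo, 228, 505 and 427 CPM in pericarp, and 281, 186 and 393 CPM in endosperm. The embryo libraries were close together, at 287 ± 15.3 CPM, and the pericarp libraries far apart, at 387 ± 143 CPM (SD, n = 3 each).

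**Figure D1:**
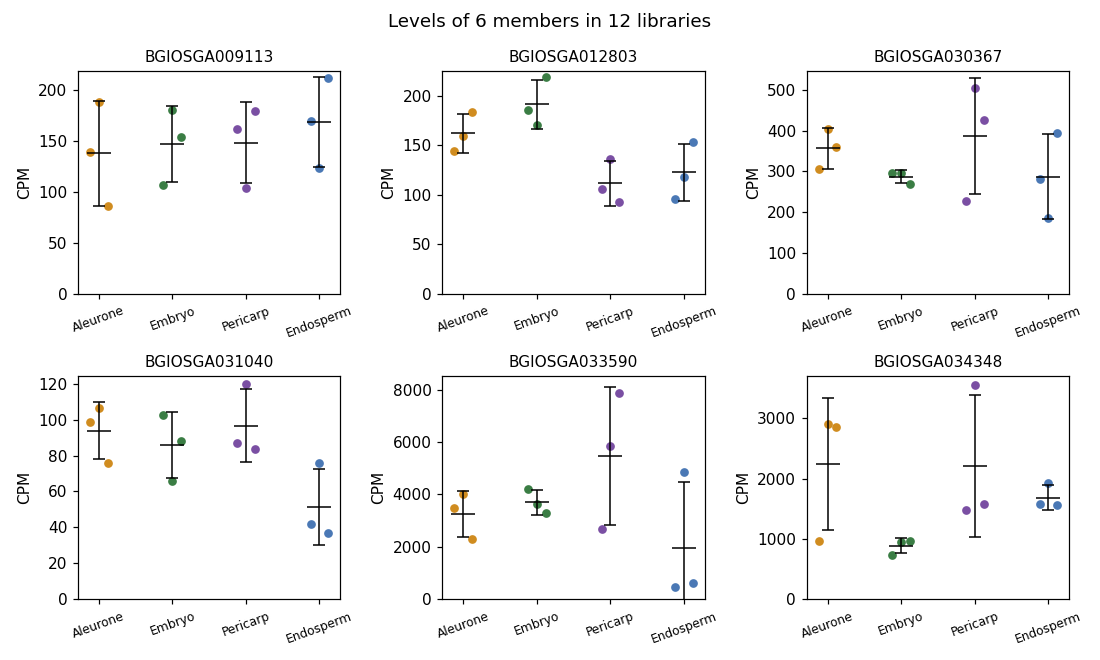
CPM (y axis, from 0) in the 12 libraries, by tissue (x axis), for 6 of the 200 genes: the 3 of lowest CV, BGIOSGA031040, and the 2 with the most reads. Points are libraries, and black bars are the tissue mean ± SD (n = 3), cut at 0 for BGIOSGA033590 in endosperm. On CPM by totals the 3 genes of lowest CV stay within 2.37-fold to 2.72-fold over all libraries, while BGIOSGA033590 spans 17.5-fold.

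The 200 genes covered about 2 orders of read number. Mean CPM over the 12 libraries ran from 36.4 to 3595 with a median of 178, and 159 genes were above 100 CPM and 7 above 1000. CPM is not adjusted for transcript length, so it orders genes by reads and not by transcripts.

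The highest mean was that of BGIOSGA033590 on chromosome 11 (21436942 to 21443955, minus strand), at 3595 CPM over all libraries. It had 3489, 3996 and 2285 CPM in aleurone, 4204, 3614 and 3268 CPM in embryo, 2670, 5837 and 7884 CPM in pericarp, and 451, 4836 and 602 CPM in endosperm. Endosperm 2 and 4 stood far below every other library, and endosperm 3 among the highest, so the endosperm mean of 1963 ± 2489 CPM (SD, n = 3) describes none of its libraries. The CV over all 12 was 57.5%.

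BGIOSGA034348, also on chromosome 11 (4732676 to 4735985, minus strand), came next at 1753 CPM. Embryo libraries held 735 to 959 CPM and the other 9 libraries 968 to 3564 CPM, with no overlap. Its endosperm libraries were close together, at 1572, 1923 and 1558 CPM.

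The lowest mean was that of BGIOSGA037457 on chromosome 12 (15725250 to 15726655, plus strand), 36.4 CPM, with tissue means of 17.9 ± 6.93 CPM in aleurone, 59.0 ± 11.8 in embryo, 41.8 ± 5.38 in pericarp and 27.0 ± 12.7 in endosperm (SD, n = 3 each). BGIOSGA021882 on chromosome 6 (3350862 to 3356950, minus strand) averaged 43.0 CPM, with its highest value, 90.3 CPM, in pericarp 4 and its lowest, 9.34 CPM, in endosperm 2. The widest span among the 200 belonged to BGIOSGA008665, named after its values were seen, at 2.65 to 120 CPM.

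The limit of 200 fell in a dense stretch of CVs. The last genes inside were BGIOSGA003469 at 58.6% and BGIOSGA023908 at 58.8%, and the first outside were BGIOSGA005480 at 58.9% and BGIOSGA007652 at 59.0%. The jackknife SE of these 4 CVs, from leaving out each library, was 9.37 to 15.2 percentage points, far more than the steps between them. BGIOSGA037838, the gene nearest above the 4-fold limit, had a ratio of 4.0 and a CV of 86.0%.

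**Figure D2:**
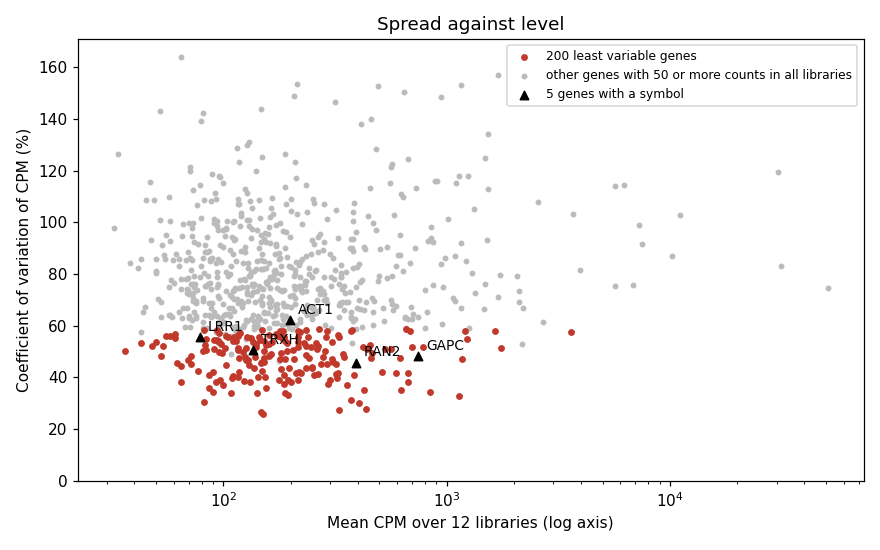
CV of CPM over 12 libraries in percent (y axis) against mean CPM (x axis, log scale) for the 200 least variable genes (red), the 606 other genes with 50 or more counts in all libraries (grey) and 5 genes with a symbol (triangles). The red genes fill the lower edge of the cloud at every level up to 3595 CPM, and RAN2, GAPC, TRXH and LRR1 lie among them while ACT1 lies above.

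Across tissues, on CPM by totals, the 200 genes were most often highest in embryo and lowest in endosperm. The highest tissue mean was in aleurone for 29 genes, in embryo for 82, in pericarp for 64 and in endosperm for 25. The lowest was in aleurone for 41, in embryo for 36, in pericarp for 21 and in endosperm for 102. The commonest pattern, embryo highest and endosperm lowest, held 52 genes, and pericarp highest with endosperm lowest held 33. Together the 200 genes took 4.98% ± 0.823 of the counts in aleurone, 5.96% ± 0.109 in embryo, 5.99% ± 0.973 in pericarp and 4.29% ± 1.17 in endosperm (SD, n = 3 each). Endosperm 2 had the smallest share, 3.28%, and was the lowest of the 12 libraries for 53 genes. Pericarp 3 and 4 had the largest, 6.56% and 6.55%, and were the highest library for 35 and 38 genes.

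Replicates of embryo were closer to each other than those of any other tissue. The median CV over the 3 libraries of a tissue was 37.6% in aleurone, 16.5% in embryo, 43.1% in pericarp and 37.3% in endosperm for the 200 genes, against 49.4%, 20.7%, 59.2% and 50.9% in the same order for the other 606. The tissue accounted for a median of 51.7% of a gene's sum of squares among the 200 and 63.2% among the 606, so the remainder lay between libraries of a tissue. Across the 200 genes, log2(CPM + 0.5) in pericarp 1 correlated with pericarp 4 at r = 0.584, and the lowest value between any libraries was 0.549, for pericarp 4 and endosperm 2. These correlations are across genes, which are not independent replicates, and rest on genes chosen to be alike in all libraries.

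**Figure D3:**
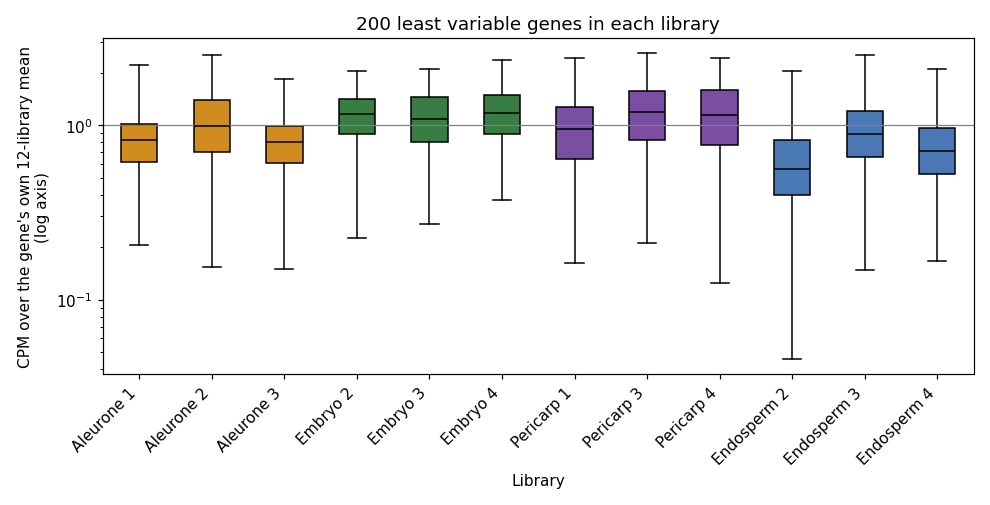
Each gene's CPM over its own 12-library mean (y axis, log scale) for the 200 genes in each library (x axis). Boxes span the quartiles with the median as a line, and whiskers reach the lowest and highest gene. The endosperm 2 box lies lowest, with a median of -0.84 on the log2 scale, and the medians of the embryo libraries and of pericarp 3 and 4 lie above 1.

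These tissue differences turned with the scaling of the libraries. TMM scaling, which sets libraries by the bulk of their genes and not by their totals, had its highest factor, 2.11, in pericarp 4 and its lowest, 0.415, in endosperm 2, and moved every gene by -1.67 (log2) in pericarp against endosperm and by -1.24 in embryo against endosperm. On CPM by totals, 158 of the 200 genes had a higher mean in pericarp than in endosperm, and after TMM scaling 10 did. For embryo against endosperm 145 were higher on totals and 56 after TMM, and for aleurone against endosperm 128 and 51. For aleurone against pericarp 65 and 176 were higher, for aleurone against embryo 65 and 115, and for embryo against pericarp 100 and 145. After TMM scaling the endosperm was the highest tissue for 124 of the 200 genes and the pericarp the lowest for 129.

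DESeq2 size factors, which take the median ratio to a common library, put the endosperm highest for 138 of the 200 genes, the embryo lowest for 90 and the pericarp lowest for 69. No direction between tissues is therefore given for the 200 genes as a group without its scaling.

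Chosen afresh on another scaling, most of the 200 would be other genes. With TMM-scaled CPM 89 of the 200 (44.5% of each list) were chosen again, and with DESeq2 size factors 87. BGIOSGA009113, the least variable gene on totals, had a CV of 72.6% after TMM scaling and 70.5% with DESeq2 factors. BGIOSGA012803 had 50.2% and 45.5% in the same order, and BGIOSGA030367 had 59.0% and 55.8%. On all 3 scalings 80 of the 200 were chosen, and 104 on totals but on neither of the other scalings. The 80 had a median level of 199 CPM and a median span from start to end of 3530 bases, against 153 CPM and 4240 bases in the other 120.

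Among those 80, BGIOSGA031040 had the smallest CV when each gene is taken at the highest of its 3 CVs. Its CVs were 30.4% on totals and 28.8% with TMM or DESeq2 factors, and other genes were lower on each single scaling. This gene and the next were singled out after their values were seen. It lies on chromosome 9 (18116012 to 18117160, plus strand). It had 99.0, 106 and 76.0 CPM in aleurone, 102, 66.0 and 88.3 CPM in embryo, 87.0, 120 and 83.4 CPM in pericarp, and 41.7, 75.9 and 36.5 CPM in endosperm. Aleurone, embryo and pericarp libraries overlapped, and endosperm 2 and 4 lay below all of them on totals. BGIOSGA013494 on chromosome 3 (33784428 to 33786916, plus strand) stood at 944 ± 332 CPM in aleurone, 1240 ± 197 in embryo, 1495 ± 171 in pericarp and 867 ± 471 in endosperm (SD, n = 3 each), with CVs from 30.4% to 35.6% on the 3 scalings.

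**Figure D4:**
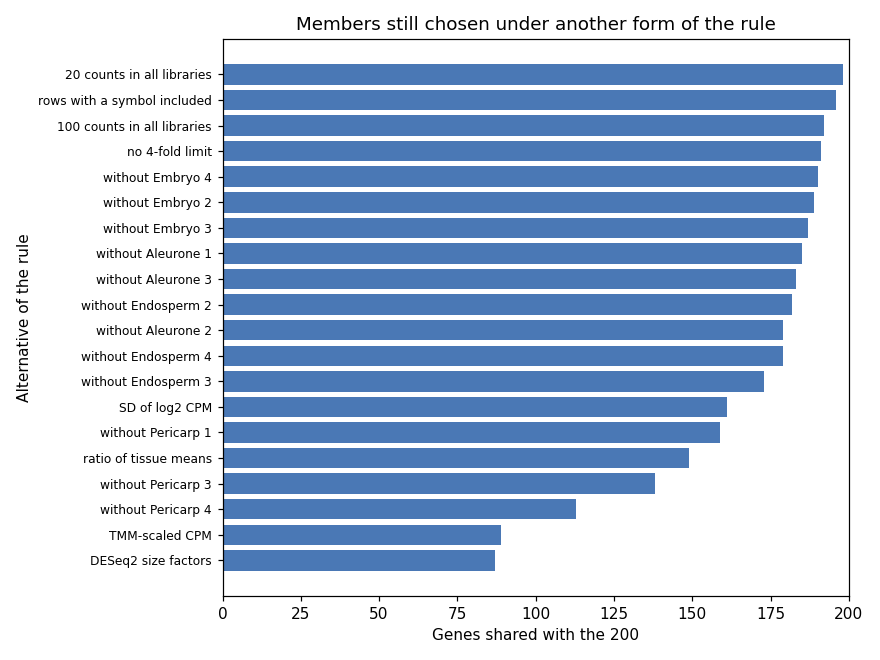
Number of the 200 genes chosen again (x axis, 0 to 200) under each alternative form of the rule (y axis): another scaling of the libraries, another count minimum, another measure of spread, no 4-fold limit, or 1 library left out. Another count minimum leaves 192 or 198 of them, another scaling 87 or 89.

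The choice also changed when a pericarp library was left out. Without pericarp 4 the count minimum was met by 1197 genes in place of 806, and 113 of the 200 were chosen again. Without pericarp 3 or pericarp 1 it was 138 or 159, and without any of the other 9 libraries 173 to 190. A minimum of 20 or 100 counts kept 198 or 192, the SD of log2(CPM + 0.5) in place of the CV kept 161, and the smallest ratio of tissue means kept 149.

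A library that took no part in the choice gives values the rule did not fix. The rule was therefore applied to 11 libraries at a time, and the 200 genes so chosen were read in the 12th. With an embryo library left out, 174, 169 and 170 of the 200 genes (embryo 2, 3 and 4) lay within 2-fold of their mean over the other 11, which is 87.0%, 84.5% and 85.0%. Of the other genes with 50 counts in the same 11 libraries, 60.6%, 57.4% and 58.7% did. With an aleurone library left out the share was 76.5%, 65.0% and 80% (aleurone 1, 2 and 3), against 62.7%, 47.3% and 61.1%. The genes chosen as steady were more often near their mean in the left-out library than the others in all 12 cases on CPM by totals, by different margins. The remaining libraries of the same tissue took part in the choice. The genes set beside the 200 include those over the 4-fold limit, so the margin is not independent of the rule.

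In endosperm the margin was wide. Of the 200 genes 47.0%, 69.0% and 64.0% lay within 2-fold in endosperm 2, 3 and 4, against 17.9%, 37.3% and 27.2% of the others. The genes as a whole lay lower there, with a median log2 difference from the other libraries of -1.05, -0.31 and -0.69 for the 200 and -1.96, -1.26 and -1.75 for the others.

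In pericarp the margin was narrow, at 61.0%, 52.5% and 44% of the 200 genes (pericarp 1, 3 and 4) against 49.4%, 46.8% and 37.9% of the others. In pericarp 4 the spread of the log2 differences about their median was 1.62 for the 200 and 1.46 for the others. In every other library that spread was smaller for the 200. Many genes steady in 11 libraries had few or no counts in the pericarp library left out. Of the 200 genes chosen without pericarp 4, 68 had fewer than 50 counts there and 56 had none. For pericarp 1 and 3 the numbers were 33 and 42 under 50 counts, with 29 at 0 in each case. In these 3 libraries 16.5%, 21.0% and 34.0% of the 200 fell under 50 counts, against 17.5%, 23.7% and 32.4% of the others. In aleurone and endosperm 0 to 9 of the 200 fell under 50 counts, and in embryo 0. Pericarp 4 had 2879282 counts, so the limit that a count of 0 allows, 3 counts, stood at 1.04 CPM there and covers counting error only.

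**Figure D5:**
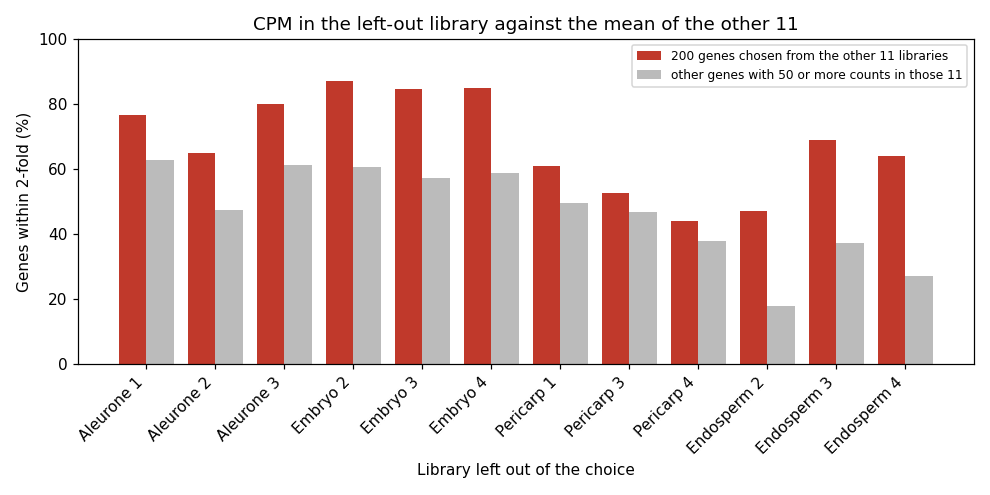
Percentage of genes (y axis) whose CPM in a left-out library lay within 2-fold of the mean of the other 11, on log2(CPM + 0.5), for each left-out library (x axis). Red bars are the 200 genes chosen from the other 11 libraries, and grey bars are the other genes with 50 or more counts in those 11. Red exceeds grey in every library, from 44% against 37.9% in pericarp 4 to 47.0% against 17.9% in endosperm 2.

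The edgeR quasi-likelihood test, fitted to all 16347 genes with TMM scaling and Benjamini-Hochberg adjustment, called few of the 200 genes between tissues at an adjusted p below 0.05 and at least 2-fold. The choice used these comparisons, so nothing is read from the counts. Pericarp against endosperm called 2 of the 200, where 2.46% of all genes tested were called. At an unadjusted p below 0.05 stood 45 of the 200 and 4959 of the 16347. Embryo against endosperm called 1, where 0.685% of all were called, and unadjusted there were 27 of the 200 and 4364 of all. The other 4 pairs called 0 of the 200 in edgeR. At an unadjusted p below 0.05 stood 8 of the 200 and 3198 of all in aleurone against endosperm. These numbers were 9 and 5091 in aleurone against pericarp, 12 and 2349 in aleurone against embryo, and 9 and 6571 in embryo against pericarp. In these 4 pairs edgeR called 0.0428%, 1.63%, 0.447% and 2.79% of all genes tested. Tested between any tissues (edgeR F test), 1 of the 200 was called, and 1.78% of all.

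Other tools called more of the 200 and more of all genes. DESeq2 called 7 of the 200 in aleurone against endosperm (14.7% of all genes tested), 35 in embryo against endosperm (18.9%) and 33 in pericarp against endosperm (29.3%). It called 4 in aleurone against pericarp (26.8%), 12 in aleurone against embryo (8.37%), 9 in embryo against pericarp (31.9%) and 28 between any tissues (13.6%). Limma voom called 6 in aleurone against endosperm (4.40% of all), 43 in embryo against endosperm (28.5%) and 13 in pericarp against endosperm (10.3%). It called 1 in aleurone against pericarp (10.3%), 7 in aleurone against embryo (13.8%), 8 in embryo against pericarp (44.2%) and 39 between any tissues (41.6%). Nothing is read from these counts either.

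The genes called were BGIOSGA023473 and BGIOSGA006358, lower in pericarp than in endosperm, and BGIOSGA024189, lower in embryo than in endosperm. BGIOSGA023473 on chromosome 6 (30276980 to 30278581, plus strand) had 241, 197 and 586 CPM in pericarp and 993, 710 and 1007 CPM in endosperm. Its pericarp libraries all lay below its endosperm libraries, and it fell by 3.25 ± 0.64 on the log2 scale after TMM scaling (SE, edgeR adjusted p = 0.0215). BGIOSGA006358 on chromosome 2 (20461531 to 20466800, minus strand) had 224, 132 and 394 CPM in pericarp and 538, 423 and 702 CPM in endosperm, and fell by 2.96 ± 0.66 (edgeR adjusted p = 0.0362).

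BGIOSGA024189 on chromosome 7 (18845995 to 18861892, minus strand) had 503, 563 and 450 CPM in embryo and 637, 2139 and 1286 CPM in endosperm, again with no overlap, and fell by 2.53 ± 0.51 (edgeR adjusted p = 0.0454). With library totals alone all 3 calls ended (edgeR adjusted p from 0.111 to 0.237). The call of BGIOSGA023473 ended without aleurone 3, embryo 2 or 4, or endosperm 2 or 4 (up to 0.0628), that of BGIOSGA006358 without aleurone 1 or 3, any embryo library, pericarp 3, or endosperm 2 or 4 (up to 0.114), and that of BGIOSGA024189 without any aleurone or embryo library or endosperm 3 or 4 (up to 0.254). By CV on totals BGIOSGA006358 ranked 15th of the 200, BGIOSGA023473 48th and BGIOSGA024189 187th.

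Libraries of a pair often did not overlap even among these genes, with CPM by totals. In embryo against endosperm all 3 embryo libraries lay above all 3 endosperm libraries for 95 of the 200 genes (47.5%) and below for 18 (9.0%). Of all genes tested 53.0% lay above and 5.19% below, and of the other 606 genes 67.0% and 11.2%. In pericarp against endosperm 52 (26.0%) lay above and 10 (5.0%) below, against 4.59% and 8.08% of all genes tested and 47.2% and 4.13% of the 606. In aleurone against endosperm 22 (11%) lay above and 11 (5.5%) below, against 13.6% and 3.69% of all genes tested and 33.2% and 5.94% of the 606. In aleurone against pericarp 3 (1.5%) lay above and 26 (13.0%) below, against 10.0% and 1.95% of all and 1.32% and 17.2% of the 606. In aleurone against embryo 21 (10.5%) lay above and 67 (33.5%) below, against 5.40% and 34.0% of all and 13.4% and 44.2% of the 606. In embryo against pericarp 28 (14.0%) lay above and 21 (10.5%) below, against 40.0% and 2.42% of all and 17.8% and 23.3% of the 606. These counts hold for totals, the scaling that chose the genes.

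Gene models differed in length between the 200 and the other 606 genes. The span of a model from start to end, introns included, had a median of 4134 bases in the 200 (quartiles 2153 and 6944) and 3003 in the 606 (1775 and 4743). Over all 21301 identifier-only genes with any count it was 2609 bases. The spans of the 200 ran from 411 to 31562 bases, and the 3 genes of lowest CV had 10220, 9310 and 16417.

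By quartile of span, 38 of 202, 38 of 201, 48 of 201 and 76 of 202 of the 806 genes were among the 200, from the shortest to the longest quartile. By quartile of mean CPM the numbers were 42, 53, 63 and 42. Over the 806 genes the CV had a Spearman correlation of -0.16 with span and 0.0042 with mean CPM, across genes that share their libraries and depth. Longer genes thus made up more of the 200, and genes of middle level somewhat more than those of low or high level. Both are descriptions.

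The 200 genes lay on all 12 chromosomes, from 33 on chromosome 1 and 28 on chromosome 3 to 7 each on chromosomes 10 and 11. Chromosome 3 held 14.0% of the 200, 18.6% of the 606 and 13.7% of all identifier-only genes with a count, and chromosome 1 held 16.5%, 13.2% and 14.7%. On the plus strand lay 105 (52.5%), as did 52.3% of the 606.

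Genes with a symbol were barred from the choice, and 27 of the 412 had 50 or more counts in all 12 libraries. Of these, 8 stayed within 4-fold between tissue means, and 4 of the 8 had a CV below that of the last of the 200: RAN2, GAPC, TRXH and LRR1. Ranked with all rows they would stand 72nd, 95th, 110th and 163rd by CV.

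RAN2, a small GTPase of transport between nucleus and cytoplasm, had 256, 374 and 313 CPM in aleurone, 440, 539 and 603 CPM in embryo, 473, 582 and 633 CPM in pericarp, and 120, 200 and 170 CPM in endosperm. Endosperm libraries were the lowest and those of embryo and pericarp the highest, without overlap between the endosperm and any other tissue. Its CV was 45.8% on totals and 18.1% after TMM scaling, below that of every gene of the 200 named here.

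GAPC, the cytosolic glyceraldehyde-3-phosphate dehydrogenase of glycolysis and a common reference gene, had 648 ± 238 CPM in aleurone, 1152 ± 88.9 in embryo, 893 ± 73.6 in pericarp and 292 ± 203 in endosperm (SD, n = 3 each). Its CV was 48.3% on totals and 35.3% after TMM scaling. TRXH, a thioredoxin of the h type, which reduces disulfide bonds in target proteins, had 158 ± 73.3 CPM in aleurone, 86.5 ± 17.2 in embryo, 214 ± 44.7 in pericarp and 85.8 ± 31.8 in endosperm, with CVs of 50.6% and 41.6%. LRR1 had CVs of 55.5% on totals and 45% after TMM scaling, with its highest value, 142 CPM, in pericarp 4 and its lowest, 17.1 CPM, in endosperm 2.

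Another common reference gene lay outside. ACT1, an actin of the cytoskeleton, had 107 ± 46.9 CPM in aleurone, 372 ± 45.4 in embryo, 140 ± 118 in pericarp and 178 ± 52.8 in endosperm (SD, n = 3 each), with a CV of 62.1% on totals and 65.2% after TMM scaling. All 3 embryo libraries lay above the other 9. ACT3 and PP2A1, the other genes of the list of reference genes in the table, did not reach 50 counts in all 12 libraries.

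The other lists were drawn up by the first letters of the symbol and not by function. The list meant for small GTPase and vesicle genes had 1 of 8 under both limits (RAN2). Its other symbols begin with ARF or RAB16, and those letters alone do not show genes of that kind. The same holds for BIPP2C2 in the chaperone list. Autophagy genes had 1 of 4 (ATG8A) and redox genes 1 of 8 (TRXH). The ribosomal (12 genes), histone H2B (10), energy (4), proteasome (2), chaperone (2) and proton pump (1) lists had none. Of these lists, 1 ribosomal, 3 energy and 1 chaperone gene reached 50 counts in all 12 libraries. In the histone, proteasome and proton pump lists 0 did. ATG8A, whose product coats the autophagosome, had a CV of 74.0%, with 164 ± 102 CPM in pericarp and 43.4 ± 26.8 in endosperm (SD, n = 3 each). CESA1, a cellulose synthase of the cell wall, kept its tissue means within 2.64-fold, yet its pericarp libraries stood at 52.7, 640 and 568 CPM, and its CV was 69.3%.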

How the data were processed

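Counts per gene from 12 libraries were used. The deposited count columns, per the file headers, held whole numbers that the authors had not normalized. The other 36 value columns of the table were not analysed here. No label or header used here names an aligner, a genome build or a strand setting, so reads of near-identical or overlapping genes could not be checked.

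The column header gave each library's tissue (Al, Em and Pc, with Se taken as the endosperm, the tissue left over), a number (for embryo, pericarp and endosperm not the numbers of the sample titles) and a lane: 6 for 5 libraries and 5 for 7.

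Membership, CV and the 4-fold limit used CPM by library totals in Python 3.11.15. edgeR 4.0.16 in R 4.3.3 fitted all 12 libraries (filterByExpr, minimum count 10, TMM, tissue only). limma 3.58.1 and DESeq2 1.42.0 were alternatives. The code was tested on simulated data with a much smaller spread than these libraries have (edgeR common dispersion 3.49). That test does not show how many changed genes would be found here. The 200 genes, the lists, the tests and the rule for named genes (lowest CV, most and fewest reads, nearest the limits, called, and genes with a symbol) were chosen with earlier results of these data known. Floors cover counting error only, since reads without molecular identifiers are not independent molecules.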

Additional observations from a re-analysis of the deposited data

How the results depend on the processing

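With TMM-scaled CPM 89 and with DESeq2 size factors 87 of the 200 genes were chosen again, and 113 to 190 with 1 library left out. Letting in rows with a symbol, tried after the data were seen, kept 196. The median CV of the genes chosen was 49.7%, and it was 40.6% with TMM-scaled CPM, 38.4% with DESeq2 size factors and 43.8% to 50.2% without single libraries. The median deviation in a left-out library (0.67 on the log2 scale) moved by less than its SD over the 12 libraries (0.27) with TMM, DESeq2 factors or no pseudocount.

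More of the 200 were called by other tools. For pericarp against endosperm (2 in edgeR) DESeq2 called 33 (29.3% of all genes tested) and limma voom 13 (10.3%). DESeq2 size factors called 1 (2.26%), a fit of all genes with a count 1 (1.40%) and lane as a covariate 1 (1.11%). Totals alone called 0 (0.783%), and a fit of the 6 libraries called 0 of the 200 and 0 of all. For embryo against endosperm (1), in the same order, these were 35 (18.9% of all), 43 (28.5%), 3 (0.667%), 0 (0.651%) and 0 (0.532%). Totals gave 0 (0.807%) and the 6 libraries 32 (29.5% of all). Between any tissues (1) DESeq2 called 28 (13.6% of all), voom 39 (41.6%), lane as a covariate 0 (0.844%) and totals alone 0 (0.869%). The 6 libraries alone called 2 for aleurone against embryo (2.56% of all) and 7 for embryo against pericarp (42.1%). There DESeq2 called 12 (8.37%) and 9 (31.9%), and voom 7 (13.8%) and 8 (44.2%). DESeq2 called 7 (14.7%) and 4 (26.8%) for aleurone against endosperm and against pericarp, and voom 6 (4.40%) and 1 (10.3%).

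Without single libraries the count for pericarp against endosperm was 0 to 10. It was 10 without pericarp 1 (5.54% of all genes tested) and 6 without endosperm 3 (3.35%). It was 1 without aleurone 1 (1.41%), embryo 3 (0.956%) or pericarp 3 (3.35%). It was 0 without aleurone 3, embryo 2 or 4, or endosperm 2 or 4 (0.623% to 0.842%). For embryo against endosperm it was 0 to 6, with 6 without pericarp 1 (1.38% of all). It was 0 without any aleurone or embryo library or endosperm 3 or 4 (0.272% to 0.492% of all). Between any tissues it was 0 to 7, with 7 without pericarp 1 (4.90% of all) and 3 without pericarp 4 (2.86%). It was 0 there without any aleurone or embryo library or endosperm 2 or 4 (0.334% to 0.837% of all). For aleurone against pericarp and against embryo the count was 0 to 1, and 1 only when pericarp 1 was left out (4.70% and 0.590% of all). In the fits with 0, the shares of all were 0% to 3.61% against pericarp and 0.190% to 0.588% against embryo. For embryo against pericarp it was 0 to 1, and 1 without aleurone 2, pericarp 1 or 3, or endosperm 3 (3.67% to 5.05%). In the fits with 0 called, 0.621% to 3.22% of all were called. For aleurone against endosperm it was 0 throughout (0% to 0.360% of all).

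Libraries with the same header number did not deviate together (13 correlations from -0.042 to 0.030, none over 0.1). Libraries with different numbers gave 41 correlations from -0.045 to 0.058. With no shared deviation in either set, the values cannot show if plants or seeds were shared. With the replicate block edgeR called 0 of the 200 in each of the 6 pairs and 0 between any tissues. It called 0.404% to 2.26% of all genes tested in the pairs, and 3.55% between any tissues. The cause of these changes was not tested. Library totals and 3 libraries a tissue limit precision.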

Other observations

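Only 1 pair of neighbouring genes along a chromosome was among the 200, BGIOSGA028434 (14442132 to 14445172) and BGIOSGA028435 (14447654 to 14449134) on chromosome 8.

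The headers name 2 lanes, and the 200 genes were chosen for low spread over libraries of both, so their lane values are a description. Within tissues lane 6 minus lane 5 had a median of -0.15 (quartiles -0.44 and 0.11) on the log2 scale for the 200 and -0.30 for the other 606 genes. The median CV of the 200 was 46.2% over the 7 libraries of lane 5 and 49.2% over the 5 of lane 6, against 76.9% and 77.6% in the 606.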
